A study of Rattus norvegicus with 6 samples.

Results

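The regions described here were the differentially methylated regions (DMRs) that the annotation table assigned to potassium channel genes, taken as all genes with a symbol beginning with Kcn apart from Kcnq1ot1, an antisense RNA. Each region was counted once by its position and sequence context, which gave 100 of the 24862 annotated regions. They lay in 52 Kcn genes, and the RefSeq gene table held 95 protein-coding rat genes with such a symbol, so that 54.7% carried at least 1 region. Of all 23148 protein-coding symbols of that table, 25.9% were found among the genes with a region, a share that includes symbols of RefSeq alone and takes no account of gene length. One of the regions belonged to both Kcnj1 and Kcnj5, and 4 regions were also assigned to a gene outside the Kcn name.

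The cells were brain microvascular endothelial cells (BMECs), sorted as the CD45-/CD31+ fraction from the hippocampus of adult male Sprague-Dawley rats. Rats of the CUMS group (n = 3 samples) were under chronic unpredictable mild stress for 8 weeks, with restraint, deprivation of food and water, a tilted cage, wet bedding, a cold swim or continuous light in random daily order, and rats of the Ctrl group (n = 3 samples) stayed in their home cages. The tables give a single level for each group, in which the 3 samples were combined, so that levels come without a replicate error or the depth behind each region, and no difference could be set beside the variation among samples. The labels do not say whether a sample is a single rat. The tables hold no expression values, and the sorted cell type could not be checked against its markers.

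Potassium channels let potassium ions leave or enter a cell and so set its membrane potential. Voltage-gated channels open on depolarization, calcium-activated channels open when calcium rises inside the cell, inward rectifiers hold the resting potential and two-pore channels carry the background leak. In the vessel wall, channels of endothelium and smooth muscle are known for their part in the spread of hyperpolarization and in vessel tone, whereas many other members are best known from neurons and heart. Methylation was called at cytosines in the CG, CHG and CHH contexts, where H is any base other than G. CG methylation is the common form in mammalian somatic cells, and clusters of CG known as CpG islands, which often lie at gene starts, are usually unmethylated.

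To show the kind of sequence that lies at the start of these genes, the RefSeq promoter windows of 6 genes are given first. Each runs 5′ to 3′ from 250 bases before to 50 bases after the RefSeq transcription start on the GRCr8 assembly, and capitals mark CG dinucleotides. The DMRs are on the mRatBN7.2 assembly and could not be placed in these windows. Kcnma1 (chr15:351675-351974 on the plus strand), Kcna3 (chr2:197320074-197320373 on the plus strand), Kcnd3 (chr2:195626066-195626365 on the plus strand) and Kcnq5 (chr9:31891232-31891531 on the minus strand) carried a hypermethylated CG region at the promoter. Kcnj5 (chr8:39011047-39011346 on the minus strand) carried a hypomethylated CG region there, and Kcne5 (chrX:110727800-110728099 on the minus strand) a hypomethylated CHG region.
Kcnma1: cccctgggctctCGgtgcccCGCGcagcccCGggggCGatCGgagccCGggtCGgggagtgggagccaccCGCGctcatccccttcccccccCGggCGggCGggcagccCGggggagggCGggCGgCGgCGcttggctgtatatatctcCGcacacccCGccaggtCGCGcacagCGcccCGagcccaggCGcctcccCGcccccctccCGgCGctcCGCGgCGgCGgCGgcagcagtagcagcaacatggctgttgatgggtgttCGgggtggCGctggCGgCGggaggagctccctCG
Kcna3: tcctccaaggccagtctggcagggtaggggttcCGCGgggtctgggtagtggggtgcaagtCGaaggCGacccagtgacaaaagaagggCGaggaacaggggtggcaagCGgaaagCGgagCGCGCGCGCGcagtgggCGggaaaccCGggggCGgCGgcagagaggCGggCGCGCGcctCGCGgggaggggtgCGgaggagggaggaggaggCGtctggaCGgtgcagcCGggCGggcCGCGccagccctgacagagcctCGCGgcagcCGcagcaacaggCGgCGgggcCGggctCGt
Kcnd3: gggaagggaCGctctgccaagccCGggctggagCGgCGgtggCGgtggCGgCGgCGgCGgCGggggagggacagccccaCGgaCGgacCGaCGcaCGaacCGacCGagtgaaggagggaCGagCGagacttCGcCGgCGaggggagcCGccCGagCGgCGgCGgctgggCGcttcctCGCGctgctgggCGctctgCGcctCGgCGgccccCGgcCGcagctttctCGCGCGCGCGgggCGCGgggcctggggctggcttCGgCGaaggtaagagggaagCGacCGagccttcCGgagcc
Kcnq5: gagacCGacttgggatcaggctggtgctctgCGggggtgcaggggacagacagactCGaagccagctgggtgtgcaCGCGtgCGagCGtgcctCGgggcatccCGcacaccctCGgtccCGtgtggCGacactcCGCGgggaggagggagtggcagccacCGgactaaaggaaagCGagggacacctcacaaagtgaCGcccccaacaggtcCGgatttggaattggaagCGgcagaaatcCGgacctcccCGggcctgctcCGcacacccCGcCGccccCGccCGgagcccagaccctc
Kcnj5: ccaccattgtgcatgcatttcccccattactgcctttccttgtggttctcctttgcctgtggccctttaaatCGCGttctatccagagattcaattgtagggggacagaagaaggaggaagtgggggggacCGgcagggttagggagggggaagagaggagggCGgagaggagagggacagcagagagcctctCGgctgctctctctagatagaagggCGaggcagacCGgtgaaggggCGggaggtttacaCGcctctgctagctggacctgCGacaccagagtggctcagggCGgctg
Kcne5: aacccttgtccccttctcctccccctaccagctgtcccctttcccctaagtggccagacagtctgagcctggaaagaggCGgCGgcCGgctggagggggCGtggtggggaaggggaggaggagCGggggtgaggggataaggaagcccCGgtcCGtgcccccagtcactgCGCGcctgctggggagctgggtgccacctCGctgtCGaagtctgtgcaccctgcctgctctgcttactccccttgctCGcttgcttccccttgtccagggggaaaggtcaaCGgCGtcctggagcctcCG

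The windows of the first 4 genes were rich in CG. The dinucleotide occurred 48 times in Kcnd3, 38 times in Kcnma1, 36 times in Kcna3 and 26 times in Kcnq5, at the percentiles 99.0, 95.8, 94.6 and 84.8 of all 33469 promoter windows. The Kcnj5 window held 11 and the Kcne5 window 15, at the percentiles 61.0 and 68.0. Over all windows the median was 7 (range 0 to 66), and 94.5% of windows held at least 1 CG. Windows were found for 64 of the Kcn genes. Their 70 windows had a median of 13. The median was 30 in the 11 windows of Kcn genes with a CG region in an island, a set chosen by its islands. In the 24 windows of Kcn genes with CHG or CHH regions alone the median was 14. The 28 windows of Kcn genes with no region assigned under their symbol had a median of 8.5 (range 1 to 48). They include the window of Kcne3, and a region was assigned to a gene described as Kcne3 but listed without that symbol. Of the 9 genes with a CG region at a promoter, 5 had a window, and Kcne2, Kcnh2, Kcnh3 and Kcnk10 are named only.

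Of the 100 regions, 83 had a higher level in CUMS (hypermethylated) and 17 a lower level (hypomethylated). The hypermethylated share was 83.0%, and it was 78.1% among the 12262 regions annotated to any gene. In the CG context 28 of 31 regions were hypermethylated (90.3%, and 87.7% of all CG regions in genes). In the CHG context the numbers were 22 of 28 (78.6%, and 69.3% of all), and in the CHH context 33 of 41 (80.5%, and 77.5% of all). The direction of the Kcn regions in each context therefore lay within 10 percentage points of that of all regions in genes, and the rest of the description turns on which channels and which parts of the genes carried them. A region was listed because its groups differed, so that the difference itself is not a finding.

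**Figure D1:**
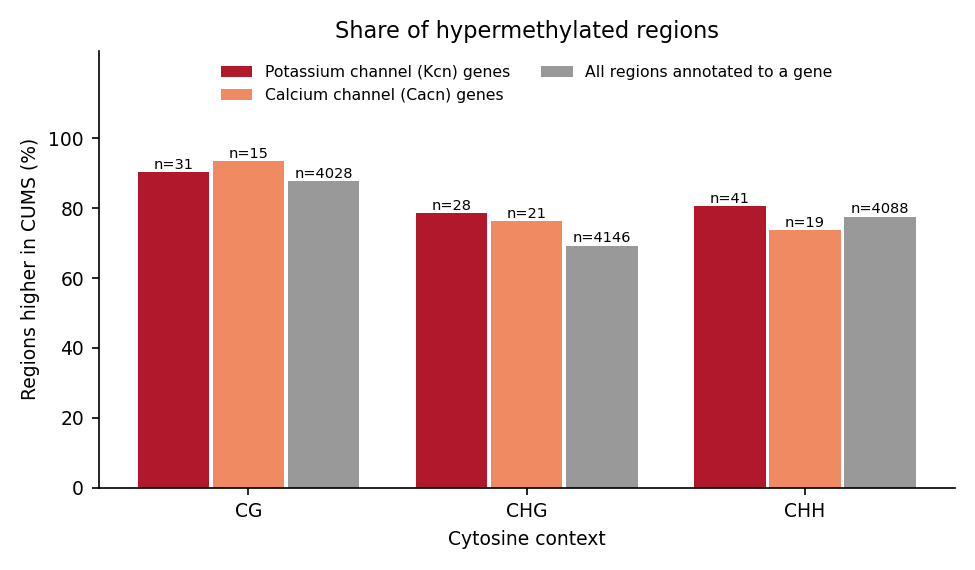
Share of regions with a higher level in CUMS (vertical axis, percent) in the CG, CHG and CHH contexts (horizontal axis) for Kcn genes, for voltage-gated calcium channel (Cacn) genes and for all regions annotated to a gene, with the number of regions above each bar. The Kcn share was 90.3%, 78.6% and 80.5%, the Cacn share 93.3%, 76.2% and 73.7%, and the share of all 87.7%, 69.3% and 77.5%.

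The size of the differences and their position were read beside all regions in genes. The median absolute difference of Kcn regions was 15.9 percentage points for CG, 4.45 for CHG and 8.46 for CHH, compared with 13.9, 4.10 and 7.05 for all regions in genes. A difference of at least 10 points was present in 43 Kcn regions (43.0%, and 33.2% of all regions in genes), of which 25 were CG, 1 was CHG and 17 were CHH regions. The paper's methods give at least 10% as the cut for its final DMRs, whereas the annotated list went down to 2.00 points. Most of the 100 regions, and nearly all CHG regions, thus lay below that cut. Introns alone held 72 of the 100 regions, and 65.3% of all regions in genes. Exons were annotated in 19 regions, which were all hypermethylated (87.8% of all exon regions were), and the 5′ untranslated region (UTR) in 11 regions, also all hypermethylated (94.5% of all). A promoter was annotated in 13 regions (13.0%, and 18.7% of all), and the 3′ UTR or transcript end in 0 regions (2.02% of all). A repeat overlapped 23 regions (23.0%, and 33.0% of all), most often LINE/L1 and LTR/ERVK elements with 5 regions each.

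The CG regions were mostly island regions. CpG islands overlapped 24 of the 31 CG regions, in some cases over only a part of the region. These 24 were all hypermethylated, as were 97.8% of all CG island regions in genes. Outside islands 4 CG regions were hypermethylated and 3 hypomethylated, and the hypermethylated share was 57.1% compared with 64.6% of all. The island regions lay in 20 genes. In 18 of them the level was low in Ctrl, between 4.02% and 10.9%, and between 9.62% and 38.0% in CUMS. The ratio of the CUMS to the Ctrl level ranged from 1.97 to 5.49 in these regions, with a median of 2.87. The other 6 island regions, in Kcnj14, Kcnj9, Kcnq1, Kcnk3, Kcng1 and Kcnv2, had a Ctrl level from 23.0% to 71.3% and were higher in CUMS by 13.1 to 23.4 points. A region covered from 4.74% to 44.0% of its island, with a median of 12.4%, so that most of each island lay outside the listed region.

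**Figure D2:**
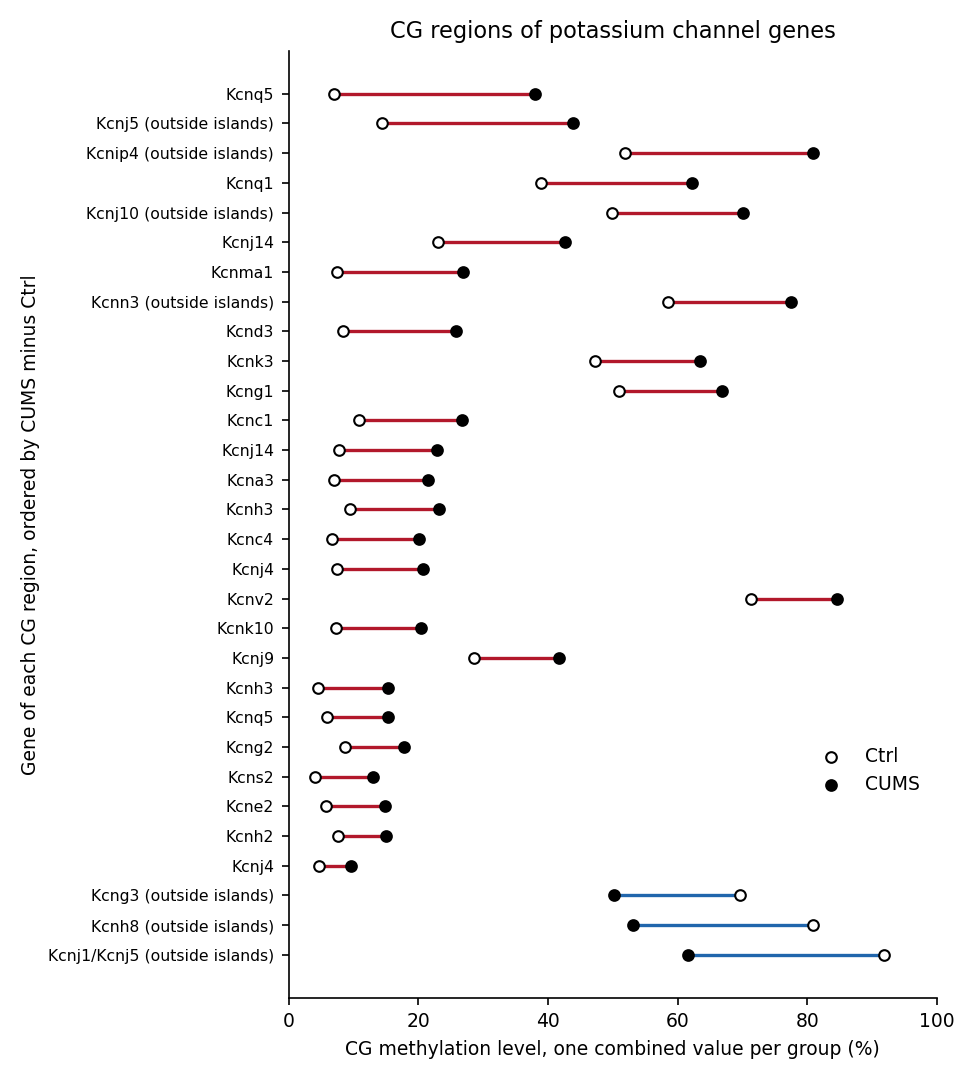
Methylation level (horizontal axis, percent) of 30 of the 31 CG regions of Kcn genes, with the Ctrl and the CUMS level of each region joined by a line and 1 row per region. The level is higher in CUMS in 27 rows and lower in 3, those of Kcnj1/Kcnj5, Kcnh8 and Kcng3, whose Ctrl levels were 91.8%, 80.9% and 69.6%.

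Among the voltage-gated alpha subunits, which form the pore, 42 regions lay in 23 of 41 genes, 36 of them hypermethylated and 6 hypomethylated. The Kv7 genes (Kcnq), whose channels carry the M current in neurons and are also found in vascular smooth muscle, held 13 regions in 4 of 5 genes, of which 12 were hypermethylated. Kcnq5 alone held 7, all hypermethylated. Its exonic island region (chromosome 9, 24394392 to 24394584, 51 cytosines) had the largest difference of any Kcn region, with 6.92% in Ctrl and 38.0% in CUMS, which is 31.1 points higher. A second region in its promoter, 210 bp away (24394795 to 24394917), had 5.95% in Ctrl and 15.3% in CUMS. The remaining 5 Kcnq5 regions were intronic CHH regions, of which the largest difference was at 24270939 to 24271243, with 0.117% in Ctrl and 15.6% in CUMS.

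Kcnq1, the pore of the slow delayed rectifier of the heart and inner ear, carried an intronic CG region (chromosome 1, 198493530 to 198493750) with 38.9% in Ctrl and 62.2% in CUMS. This region overlapped a CpG island that ended at 198493550, so that most of the region lay outside the island. Kcnq1 is known for hosting an imprinted antisense transcript, and the table assigned 0 regions to that transcript. Kcnq1 also held a CHG region of each direction, one at 0.0106% in Ctrl and 4.86% in CUMS and the other at 5.57% in Ctrl and 0.0492% in CUMS. Kcnq3, a partner in the M channel, held a CHH and a CHG region, both intronic and hypermethylated.

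The Kv4 genes (Kcnd), which carry a fast inactivating current, held 7 regions in Kcnd2 and Kcnd3, all hypermethylated. The Kcnd3 promoter region (chromosome 2, 192937691 to 192937855, 41 cytosines) had 8.29% in Ctrl and 25.7% in CUMS. Among its intronic CHH regions the largest difference was 13.1 points, from 0.0648% in Ctrl to 13.1% in CUMS. The Kv3 genes (Kcnc), known for fast repolarization, held 5 regions in Kcnc1, Kcnc2 and Kcnc4, all hypermethylated. An exonic region of Kcnc1 in an island had 10.9% in Ctrl and 26.7% in CUMS, and one of Kcnc4 had 6.61% in Ctrl and 20.1% in CUMS. A CHG region in a Kcnc1 intron (0.113% in Ctrl and 6.86% in CUMS) had the largest CHG difference of the alpha subunits.

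The Kv1 genes (Kcna) held a single region, in 1 of 8 genes. It covered the start, the promoter and the 5′ UTR of Kcna3, known for its role in lymphocytes (chromosome 2, 194632138 to 194632404, 70 cytosines), and had 7.03% in Ctrl and 21.5% in CUMS.

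The Kcnh genes (EAG, ERG and ELK channels) held 8 regions in 6 of 8 genes, 6 hypermethylated and 2 hypomethylated. Kcnh2, the ERG channel that repolarizes the heart, carried a region at its start (chromosome 4, 10826875 to 10826954) with 7.59% in Ctrl and 14.96% in CUMS. Kcnh3 carried a promoter region with 4.44% in Ctrl and 15.3% in CUMS and, 375 bp away, a region in an exon and the 5′ UTR with 9.52% in Ctrl and 23.2% in CUMS. Kcnh6 carried the highest level of the annotated Kcn CHH regions, 25.9% in CUMS and 8.29% in Ctrl, in an intron (chromosome 10, 90958981 to 90959187). Kcnh8 went the other way in an intronic CG region of 5 cytosines (chromosome 9, 5692354 to 5692425), which had 80.9% in Ctrl and 53.2% in CUMS. Kcnh1 carried a hypomethylated CHH region with 8.66% in Ctrl and 0.200% in CUMS.

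The silent modifiers (Kcnf, Kcng, Kcns, Kcnv) do not form channels alone but change those of other alpha subunits, and held 6 regions in 6 of 10 genes, 5 of them CG regions. Kcng1 had 50.9% in Ctrl and 66.8% in CUMS, Kcng2 8.60% and 17.8%, Kcns2 4.02% and 13.1%, and Kcnv2 71.3% and 84.5%, all in islands. Kcng3 held the single hypomethylated region of this group, an intronic CG region of 7 cytosines outside an island (chromosome 6, 11076072 to 11076133), with 69.6% in Ctrl and 50.2% in CUMS.

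The auxiliary subunits (Kcnab, Kcne, Kcnip), which set the gating and traffic of voltage-gated channels, held 14 regions in 8 of 13 genes, 13 hypermethylated and 1 hypomethylated. CHH regions made up 8 of the 14. Kcnip4, a calcium-binding partner of Kv4 channels, held 4 regions, all hypermethylated, with the largest CHH difference at 0.163% in Ctrl and 17.9% in CUMS. Its CG region of 5 cytosines outside an island (chromosome 14, 62486968 to 62487020) had 51.8% in Ctrl and 80.8% in CUMS. Kcne2 carried the CG region with the most cytosines, 137 at its start (chromosome 11, 31295591 to 31296046, also assigned to Slc5a3), with 5.78% in Ctrl and 14.8% in CUMS. Promoters of Kcnip2, Kcne1 and Kcnip4 carried hypermethylated CHH regions. The exception in direction was Kcne5, with a CHG region of 17 cytosines in its promoter and in an island (chromosome X, 105931034 to 105931096), which had 11.9% in Ctrl and 0.144% in CUMS. Its absolute difference of 11.8 points was the largest of the 28 CHG regions. Kcnab1, an auxiliary beta subunit, carried the largest hypermethylated CHG difference, with 0.0451% in Ctrl and 6.89% in CUMS.

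The inward rectifiers (Kcnj) held 15 regions in 9 of 15 genes, 13 hypermethylated and 2 hypomethylated, and 8 of the 15 were CG regions. Kcnj10, the Kir4.1 channel best known from astrocytes, carried a CG region in an intron and the 5′ UTR outside an island (chromosome 13, 84808451 to 84808552), with 49.9% in Ctrl and 70.0% in CUMS. Its neighbour Kcnj9, a subunit of G protein-gated channels, had 28.6% in Ctrl and 41.7% in CUMS. Kcnj14 carried CG regions with 23.0% in Ctrl and 42.6% in CUMS and with 7.82% in Ctrl and 22.9% in CUMS, and a CHG region that overlapped the first of these with 0.123% in Ctrl and 4.26% in CUMS. The second of these CG regions was also assigned to Grin2d and Grwd1. Kcnj4 carried a pair of CG regions 168 bp apart, with 4.63% in Ctrl and 9.62% in CUMS and with 7.39% in Ctrl and 20.8% in CUMS. The hypomethylated CHH region of Kcnj12 had 4.90% in Ctrl and 0.121% in CUMS.

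Kcnj5, another subunit of G protein-gated channels, held CG regions of both directions, 8288 bp apart. In its intron (chromosome 8, 30746030 to 30746153, 9 cytosines) the level was 14.4% in Ctrl and 43.8% in CUMS. In its promoter, which is also in an intron of Kcnj1 and in a CpG island shore (30754442 to 30754514, 6 cytosines), it was 91.8% in Ctrl and 61.6% in CUMS, a difference of -30.2 points (CUMS minus Ctrl) and the lowest of any annotated Kcn region. It was the single promoter CG region of a Kcn gene with a lower level in CUMS, and the other 8 were higher. Of all CG promoter regions, 96.9% were hypermethylated.

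The two-pore channels (Kcnk) held 14 regions in 7 of 14 genes, 10 hypermethylated and 4 hypomethylated. Kcnk2, the mechanically gated TREK-1 channel, carried the largest CHH difference of the annotated Kcn regions, in an intron over an LTR/ERVK element (chromosome 13, 100958299 to 100958608, 155 cytosines), with 0.206% in Ctrl and 22.9% in CUMS. Another intronic CHH region of Kcnk2 had 7.83% in Ctrl and 0.822% in CUMS. Kcnk3, the acid-sensitive TASK-1 channel, carried an exonic island region with 47.2% in Ctrl and 63.5% in CUMS. Kcnk10 carried a promoter region with 7.34% in Ctrl and 20.4% in CUMS. Kcnk18 held 4 non-CG regions within 9.02 kb, 2 in each direction, among them a hypomethylated CHG region (5.23% in Ctrl and 0.0183% in CUMS) inside a hypomethylated CHH region (5.07% and 0.112%).

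The calcium-activated channels held 14 regions in 4 of 9 genes, 10 hypermethylated and 4 hypomethylated. Kcnma1, the pore of the large-conductance BK channel of vascular smooth muscle, held 9 of them, 7 hypermethylated and 2 hypomethylated, more than any other Kcn gene. This count takes no account of gene length, and the 9 regions were spread over 448 kb. The CG region of Kcnma1, also assigned to a gene listed by identifier alone, covered the transcription start, the promoter and the 5′ UTR in an island. It lay on chromosome 15 (302008 to 302421, 124 cytosines), with 7.45% in Ctrl and 26.9% in CUMS, which is 19.5 points higher. The other 8 were intronic CHG and CHH regions, of which the largest difference had 0.346% in Ctrl and 10.4% in CUMS. Kcnn3 and Kcnn4 encode the small- and intermediate-conductance channels that endothelial cells are known to use for hyperpolarization. Kcnn3 carried an intronic CG region outside an island (chromosome 2, 175078357 to 175078481) with 58.5% in Ctrl and 77.5% in CUMS, and Kcnn4 an intronic CHH region with 0.0650% in Ctrl and 8.70% in CUMS. Kcnn2 held the largest hypomethylated difference of the annotated Kcn CHH regions, with 14.8% in Ctrl and 0.758% in CUMS (chromosome 18, 37884497 to 37884758). Kcnt1, a sodium-activated relative, held 1 CHH region with 0.340% in Ctrl and 10.5% in CUMS.

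**Figure D3:**
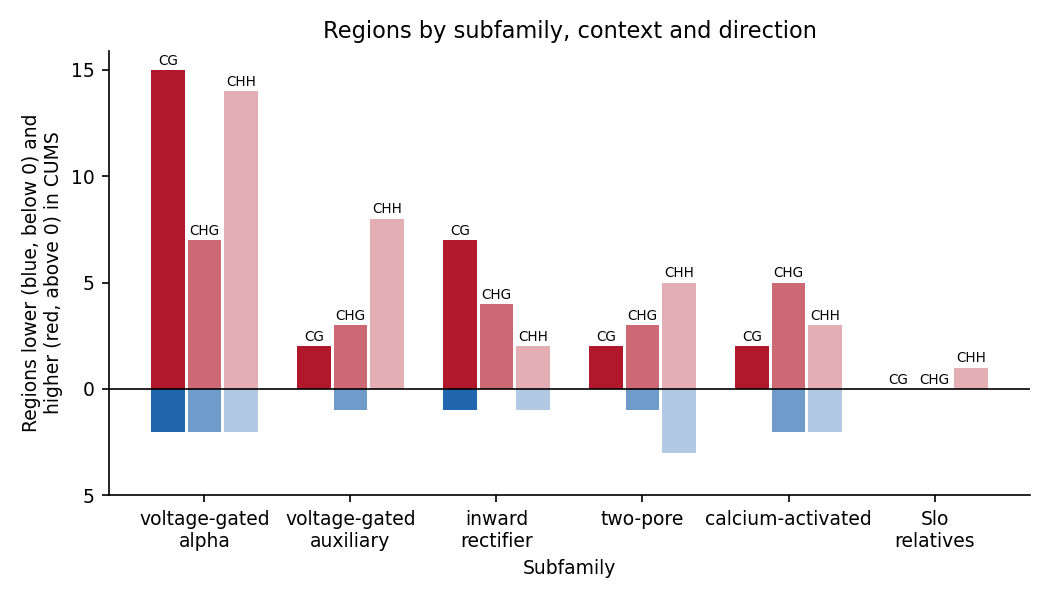
Number of regions (vertical axis) of each Kcn subfamily (horizontal axis) by context, with hypermethylated regions above 0 in red and hypomethylated regions below 0 in blue. CG regions were most frequent in the voltage-gated alpha subunits (15 higher and 2 lower) and the inward rectifiers (7 higher and 1 lower), and each of the other subfamilies had at most 2.

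The hypermethylated share of the subfamilies lay on both sides of the 78.1% of all regions in genes. It was 92.9% in auxiliary subunits, 86.7% in inward rectifiers, 85.7% in voltage-gated alpha subunits, and 71.4% in both two-pore and calcium-activated channels. These shares pool contexts that differed in direction, and the mix differed between subfamilies. CG regions were 17 of 42 in alpha subunits but 2 of 14 in two-pore and 2 of 14 in calcium-activated channels. Without Kcnma1 the calcium-activated share was 60.0% on 5 regions. The number of regions was small and several lay in the same gene, and the difference between subfamilies was not tested. By gene, 38 of the 52 genes held hypermethylated regions alone and 8 held both directions. Hypomethylated regions alone were present in 6 genes, among them Kcne5, Kcng3, Kcnh1 and Kcnj12. A single region was present in 29 genes.

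The non-CG regions were of another kind than the CG regions, since 64 of the 69 had a level under 1% in the lower group. Hypermethylated CHG regions had a median level of 0.0569% in Ctrl and 3.98% in CUMS, and hypermethylated CHH regions 0.146% and 10.1%. In hypomethylated regions the order was turned, with 5.61% in Ctrl and 0.0965% in CUMS for CHG and 4.98% and 0.210% for CHH. All non-CG regions in genes had much the same levels, so that this trait was not particular to Kcn genes. Their hypermethylated medians were 0.0540% in Ctrl and 4.28% in CUMS for CHG, and 0.212% and 7.94% for CHH. Their hypomethylated medians were 4.09% and 0.0375% for CHG, and 5.83% and 0.167% for CHH. The 5 Kcn regions with at least 1% in both groups were CHH regions, all hypermethylated, in Kcnh6, Kcnj6, Kcnd3, Kcnk10 and Kcnq5. CHG and CHH regions often lay at the same place. A CHH region of the full list overlapped 21 of the 28 CHG regions (75.0%), and the direction was the same in all 21 pairs. Among all CHG regions in genes, 72.0% overlapped one, with the same direction in 2982 of 2988 pairs. None of the 31 CG regions overlapped a CHH region of the full list (0 of 31), and 4.94% of all 4028 CG regions in genes did. A cytosine that escapes deamination is read as methylated in any context, and the part of incomplete deamination in these regions was not tested.

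**Figure D4:**
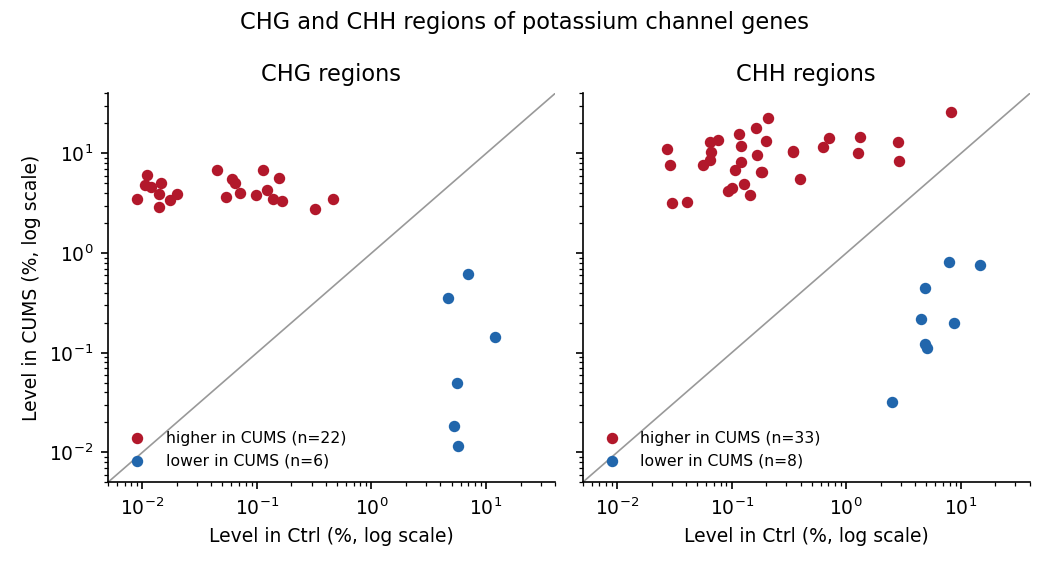
Methylation level in Ctrl (horizontal axis) and in CUMS (vertical axis) of the 28 CHG and 41 CHH regions of Kcn genes, in percent on log scales, with 1 point per region and a diagonal of equal levels. The points lie far from the diagonal on both sides, 55 above it (22 CHG and 33 CHH) and 14 below it (6 CHG and 8 CHH).

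The annotated CHH regions were among the 10000 with the largest absolute region score of 145823 in the full list, and the remaining CHH regions carried no gene annotation. The stretches between the first and last region of the 6 genes with at least 4 regions were therefore searched in the full list. They held a further 67 CHH regions, 44 hypermethylated and 23 hypomethylated (65.7% hypermethylated, and 63.5% of all 135827 such regions). The Kcnma1 stretch of 448 kb held 28 regions in all, 21 hypermethylated and 7 hypomethylated. The annotated regions of Kcnip4, Kcnd3 and Kcnj14 were all hypermethylated, but their stretches held both directions in the full list. There were 14 hypermethylated and 8 hypomethylated regions for Kcnip4, 8 and 2 for Kcnd3, and 5 and 1 for Kcnj14. The Kcnq5 stretch of 459 kb held 29, 22 hypermethylated and 7 hypomethylated, so that the uniform direction of its 7 annotated regions did not extend to the full list. One of these, a CHH region of 139 bp (chromosome 9, 24088802 to 24088940), had 30.8% in Ctrl and 0.275% in CUMS, a difference of -30.5 points.

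**Figure D5:**
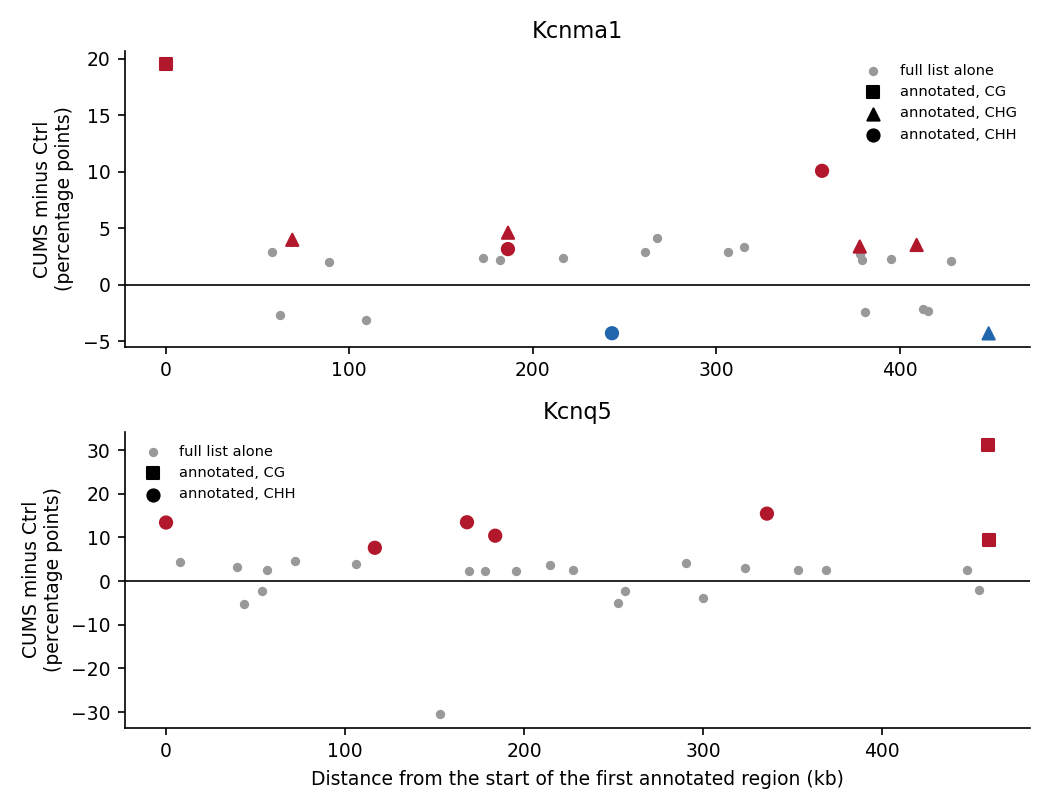
Difference in level between CUMS and Ctrl (vertical axis, percentage points) along Kcnma1 and Kcnq5 (horizontal axis, kb from the start of the first annotated region), with annotated regions in red (higher in CUMS) or blue (lower), shaped by context, and CHH regions of the full list alone in grey. The CG region of Kcnma1 lies at one end of its stretch at 19.5 points and those of Kcnq5 at the other end of theirs at 31.1 and 9.36 points.

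Channels known from vessels of the brain were counted as a list. Of its 13 genes, 8 held at least 1 region (among them Kcnj10, Kcnn3, Kcnn4, Kcnk2, Kcnk3, Kcnma1 and Kcnq5), where 54.7% of all coding Kcn genes did. The 24 regions of these 8 genes comprised 21 hypermethylated and 3 hypomethylated ones, where 78.1% of all regions in genes were hypermethylated. Most of the 24 lay in Kcnma1 (9 regions) and Kcnq5 (7 regions). The 3 hypomethylated ones were 2 regions of Kcnma1 and 1 of Kcnk2. No region was assigned to Kcnj2, the Kir2.1 channel of capillary endothelium, to Kcnj8 and Kcnj11, the pores of ATP-sensitive channels, to Kcnmb1, the beta subunit of the vascular BK channel, or to Kcna5. The tables do not show whether a gene without a region was covered by reads.

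Partners of these channels under other names were counted in the same way. Of 9 genes, 6 held 23 regions, 21 hypermethylated and 2 hypomethylated, beside the same 78.1% of all regions in genes. Dpp6 and Dpp10, which join Kv4 channels, held 17 of these, and the largest difference was in an intronic CHH region of Dpp6 with 0.210% in Ctrl and 18.9% in CUMS. Abcc8, a sulfonylurea receptor of ATP-sensitive channels, carried an intronic island region with 5.72% in Ctrl and 21.1% in CUMS. Both hypomethylated regions were intronic CG regions outside islands, in Abcc9 (93.4% in Ctrl and 78.7% in CUMS) and in Dpp10 (87.8% and 75.9%). The 3 CG regions of the partners in islands were hypermethylated (97.8% of all such regions in genes were), with a Ctrl level from 4.53% to 7.01%.

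Most regions were hypermethylated in other voltage-gated channel genes. Calcium channel genes held 55 regions in 20 of 26 genes, 80.0% of them hypermethylated. Sodium channel genes held 13 regions in 8 of 14 genes, of which 12 were hypermethylated. Of all regions in genes, 78.1% were hypermethylated. A region was found for 25.9% of all protein-coding symbols, without account of gene length. In the CG context 14 of 15 calcium channel regions and 4 of 4 sodium channel regions were hypermethylated, compared with 28 of 31 in the Kcn genes. Islands overlapped 13 of these 15 and all 4 of the sodium channel regions. Of all CG regions in genes 87.7% were hypermethylated, and 97.8% of those in islands. The direction in these channel genes was thus close to that of all regions in genes.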

How the data were processed

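Sorted hippocampal BMECs of 3 CUMS and 3 Ctrl samples were compared, with groups taken from the sample titles. Libraries were made by enzymatic conversion with TET2 and APOBEC3A, and incomplete deamination raises every level. The submitters' processing notes name FastQC 0.11.3, fastp 0.20.0, Bismark 0.16.3 and Bowtie2, and the methods name DSS for region calling. The authors deposited the methylation level of each region as a fraction, 1 value per group, given here in percent. The authors' deposited region score (areaStat) grows with region length and was used only to check that the 9996 annotated CHH regions were among the 10000 with the largest absolute score. The authors' own difference column was not used, and differences were recomputed from the levels. The tables give no depth per region, p-value or value per sample, so levels have no interval and the planned exact test on sample values was replaced by description beside all regions annotated to a gene. Of 4 deposited tables, 2 were used.

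Positions are on mRatBN7.2. Gene counts and promoter windows came from RefSeq on GRCr8, where all 52 genes were matched by symbol. Members and lists were chosen with earlier results of these data known. The genes named were those with the largest absolute difference per subfamily and context, promoter CG regions, hypomethylated CG regions, the 5 genes with the most regions (6 with a tie at 4 regions) and the vessel channels. Others named beside these, such as members of small families, were chosen after their values were seen. Results were recomputed with limits on difference, cytosines and length, and with merging within 1 kb, without repeats, without shared genes, for gene bodies or pore-forming subunits of all subfamilies alone, without Kcnma1, and with channels known by description, which was added after the tables were seen. Results of a few channel genes are not reported here. Scripts were tested on simulated data (Python 3.11.15, pandas 2.3.3).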

Additional observations from a re-analysis of the deposited data

How the results depend on the processing

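Over 11 settings, 95 of 110 compared values stayed within wide limits around the value reported, such as a factor of 1.5 for counts. Some of these could not move, so that the number is no measure of stability. Leaving out Kcnma1, for example, does not touch the other subfamilies, and the limit to pore-forming subunits does not touch the voltage-gated alpha subunits. Shares within these limits could still differ. In inward rectifiers the share was 86.7%, and 66.7% on 3 regions with at least 20 points. The hypermethylated share of all Kcn regions ranged from 77.8% to 88.4%. With at least 10 percentage points, 38 regions were hypermethylated and 5 hypomethylated, and the hypermethylated share was 94.1% in CHH, 100.0% in two-pore channels and 0% in CHG, where the 1 region left was hypomethylated and the majority direction thus turned. With at least 20 points the counts were 7 and 2, and the share was 100.0% in CHH, in auxiliary subunits and in two-pore channels, each on 1 region; CHG and calcium-activated regions gave no value. The CG share was 100.0% with at least 10 cytosines and with at least 100 bp, since the 3 hypomethylated CG regions had 5 to 7 cytosines and were short. With at least 100 bp the hypomethylated regions numbered 11 and the auxiliary share was 100.0%, as it was for gene body regions, which leave out Kcne5. No paired analysis was possible because each group has a single combined level, and for the same reason leaving out each replicate was not run. The depth behind each region is not in the tables, so no precision could be given for a level.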

Other observations

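A further 3 genes had another symbol or none in the annotation table but a description that names a potassium channel, and they are not among the 52 genes. They held 9 regions, 8 hypermethylated and 1 hypomethylated. The gene described as Kcnb2, listed as AC125757.1, held 5 intronic regions, all hypermethylated, with the largest difference in a CHH region (chromosome 5, 3710875 to 3711092) at 0.629% in Ctrl and 20.8% in CUMS. The gene described as Kcne3, a small auxiliary subunit, carried a CHG region at its transcription start with 0.0144% in Ctrl and 4.86% in CUMS.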
